A study of Caenorhabditis elegans with 2 samples.

Results

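The genes described here encode the enzymes and subunits that methylate lysine 4 of histone H3 (H3K4) in the nematode Caenorhabditis elegans, with a demethylase of the same complexes and the protease taspase. They are 9 of the 19973 protein-coding genes of the annotation: set-16, set-2, wdr-5.1, ash-2, rbbp-5, cfp-1, dpy-30, utx-1 and tasp-1. They were chosen by function and name after the peak signals of these lists had been seen, so their signals are given as a description and without a test. Each gene was taken by its symbol, and all 9 symbols matched 1 gene. A peak was assigned to a gene when its summit, the base of highest signal, lay in the gene or up to 1000 bp upstream.

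The study asked where 1 tagged protein sits on the worm genome. The worms, strain RW12180 with allele st12180, had TY1, EGFP and 3xFLAG inserted by CRISPR in a gene of chromosome I. The labels name that gene both dox-1 and dxbp-1. Cultures were synchronised as starved L1 larvae after bleaching and used whole, as young adults of 66 hours. Chromatin was sonicated to 200 to 800 bp and precipitated with an antibody against GFP, and the bound DNA was sequenced. The 2 biological replicates form the only group, and all worms carried the tag. Chromatin came from whole animals, so no value can be placed in a tissue. The authors deposited a conservative list of 3291 peaks and a larger list of 4441 peaks from both samples. They also deposited a thresholded list from each replicate (3105 and 2983 peaks) and a ranked list from each before any threshold (56265 and 65301 peaks). Read counts are not part of these lists and the depth of each sample is therefore unknown. A possible control experiment named in the labels was not analysed here.

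H3K4 methylation marks active promoters, and it is written by complexes built around 1 of several SET domain enzymes. In worms SET-2, the homologue of SET1, carries out most of the trimethylation, while SET-16 is the homologue of mammalian MLL3 and MLL4. WDR-5.1, RBBP-5, ASH-2 and DPY-30 form the core that such complexes share. CFP-1, whose mammalian counterpart binds unmethylated CpG, belongs to the SET-2 complex, and UTX-1, which removes methyl groups from lysine 27 of histone H3 (H3K27), belongs to the SET-16 complex. Loss of SET-2, ASH-2 or WDR-5.1 is known to lengthen worm lifespan through the germline. Taspase, encoded by tasp-1, is a threonine protease that in mammals cleaves MLL1 and the general factor TFIIA.

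The sites that carry the description are the promoter summits of the 5 genes with a peak in the conservative or the larger list. The stretches below are read from the WBcel235 genome (the same assembly as ce11, RefSeq), 5′ to 3′ on the strand of the named gene, and reach 50 bases to each side of the summit. They are shown because that of set-16 holds short words that were more common at summits than beside them, while the other 4 hold none of these. Capitals mark 5 such words of 6 bases, on either strand, described further on. The stretch of rbbp-5 is 82 bases long, cut where the transcribed part of its neighbour begins.

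tasp-1, chrIII:10759200-10759300, plus strand: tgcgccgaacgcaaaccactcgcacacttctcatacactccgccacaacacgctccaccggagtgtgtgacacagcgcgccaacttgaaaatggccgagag
set-16, chrIII:13643685-13643785, plus strand: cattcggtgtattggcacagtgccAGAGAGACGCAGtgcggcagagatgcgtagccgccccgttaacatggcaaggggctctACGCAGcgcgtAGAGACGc
set-2, chrIII:4930412-4930512, minus strand: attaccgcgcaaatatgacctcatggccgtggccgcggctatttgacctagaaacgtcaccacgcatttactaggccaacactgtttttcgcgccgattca
rbbp-5, chrII:6097598-6097679, plus strand: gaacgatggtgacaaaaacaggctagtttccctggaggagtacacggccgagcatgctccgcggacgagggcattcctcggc
dpy-30, chrV:12191373-12191473, plus strand: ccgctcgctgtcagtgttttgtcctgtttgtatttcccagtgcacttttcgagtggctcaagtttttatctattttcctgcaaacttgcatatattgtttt

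Summits upstream of set-16, set-2 and tasp-1 were in the thresholded lists of both replicates. Of the shared core, dpy-30 was in the conservative list made from both samples, but no gene was in the thresholded lists of both replicates. In the conservative list 4 of the 9 genes had a summit, tasp-1, set-16, set-2 and dpy-30, against 13.4% of all protein-coding genes. All 4 summits also lay in the narrower promoter window, which began 1000 bp before a transcript start, ended 200 bp after it and held a summit at 10.9% of genes. The larger list added rbbp-5, for 5 of 9 genes against 17.1%. In the list of replicate 1 alone 4 of 9 genes had a summit against 12.6%, and in that of replicate 2 alone 4 of 9 against 12.5%. These 4 were not the same genes, since dpy-30 passed in replicate 1 only and rbbp-5 in replicate 2 only. The members were chosen with these calls known, so nothing is read from their counts.

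The peak at tasp-1 was among the strongest of all. Its signal, the authors' own value per peak, was 1473 in replicate 1 and 1211 in replicate 2 (1342 ± 185, SD, n = 2). Its rank was 3 of 3291 in the conservative list, 2 of 3105 in the list of replicate 1 and 5 of 2983 in that of replicate 2. The interval, chrIII:10759023-10759525, spanned the annotated start of tasp-1 (WBGene00010480, chrIII:10759307-10763021, plus strand), with the summit at -57 bp. Annotated starts of worm genes are often sites of trans-splicing, so transcription may begin further upstream. The summits of the replicates were 5 bp apart. The divergent gene K01G5.10 (WBGene00010481) starts 785 bp away, and the summit lay at -728 bp from it, so tasp-1 was the nearer of the 2 genes. Inside the tasp-1 gene there was no peak in either ranked list. The other ranked peak of its window lay further upstream, in replicate 2 alone, with a signal of 34.4.

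The peak at set-16 was the second strongest of the 9 genes. Signal was 1034 in replicate 1 and 911 in replicate 2 (972 ± 87.1, SD, n = 2), and the summits of the replicates were 1 bp apart. The peak, chrIII:13643529-13643953, ranked 11 of 3291 in the conservative list. The start of set-16 (WBGene00011729, chrIII:13643916-13656637, plus strand) and that of drr-2 (WBGene00011730, minus strand), which encodes a homologue of a translation initiation factor, are 346 bp apart and divergent. The summit sat nearly midway, at -181 bp from set-16 and -165 bp from drr-2, so position does not assign it to 1 of them. Of the 1511 conservative summits upstream of a protein-coding gene, 31.1% were upstream of 2 or more such genes.

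The peak at set-2 was weaker and closest in height between replicates. Signal was 250.1 in replicate 1 and 247 in replicate 2 (249 ± 2.06, SD, n = 2). Peaks of the conservative list had a median width of 436 bp. Several, that of dpy-30 among them, had exactly this width, so it may not reflect breadth. The set-2 peak, chrIII:4930334-4930564, was 231 bp wide and ranked 431 in that list. Its summit lay at -258 bp from the annotated start of set-2 (WBGene00004782, chrIII:4922427-4930204, minus strand), with the replicate summits 15 bp apart. No other annotated gene of any class started within 1000 bp of it.

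The order of the 3 promoters was the same in both replicates. Signal at tasp-1 was 1.42 times that at set-16 in replicate 1 and 1.33 times in replicate 2, and at set-16 it was 4.13 and 3.68 times that at set-2. These 3 genes were chosen and ordered with the signals known, and with 2 values a gene no test was made. All 3 had slightly more signal in replicate 1, with log2 ratios of replicate 1 to replicate 2 of 0.28 at tasp-1, 0.18 at set-16 and 0.02 at set-2. Over the 3126 conservative summits with a peak in both replicates the median log2 ratio was 0.11, with 5th and 95th percentiles of -0.57 and 0.72.

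**Figure D1:**
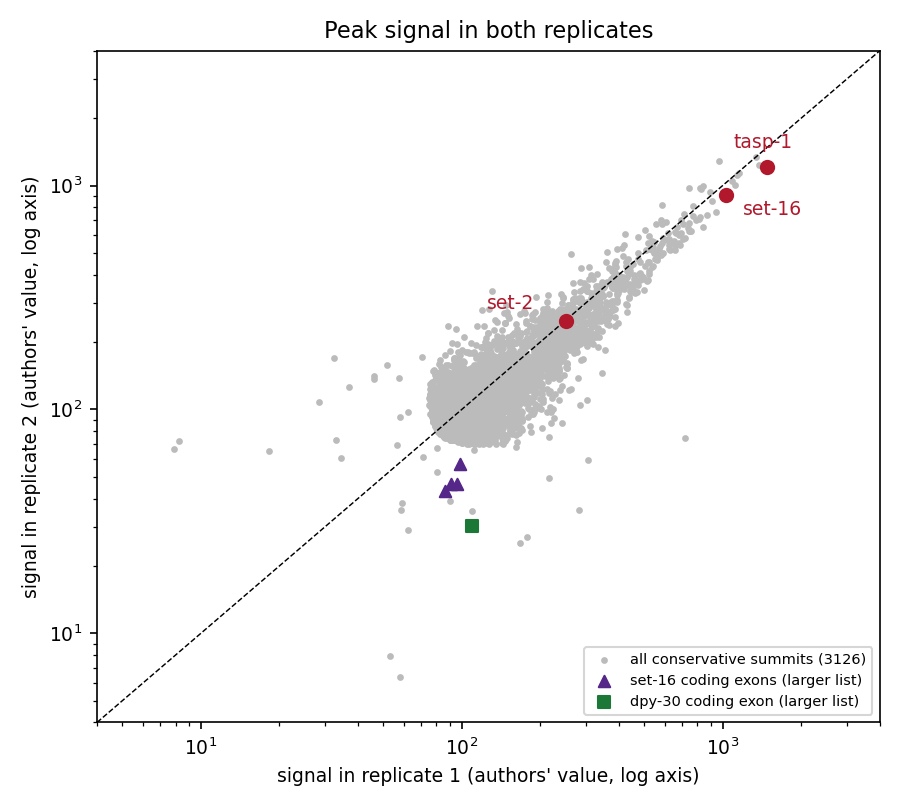
Signal in replicate 1 (x axis) against replicate 2 (y axis), both log axes of the authors' value, for 3126 conservative summits (grey), the promoter summits of 3 genes (red circles), and larger-list summits in coding exons of set-16 (triangles) and dpy-30 (square); the dashed line marks equal signal. The red points lie near the line, and the triangles and the square lie below it, with more signal in replicate 1.

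Promoters with the most similar signal belonged to genes of other roles. Likeness was the distance between log2 signals in the 2 samples, over 2135 protein-coding genes with a promoter summit and a value in both. Nearest to tasp-1 were rpl-3 at a distance of 0.06 and the divergent pair K11H12.8 and rpl-15 at 0.11, where both rpl genes encode ribosomal proteins. Nearest to set-16 were mtcu-2 at 0.03, rpa-2, a gene for part of replication protein A, at 0.05, and the ribosomal gene rpl-35 at 0.18. Nearest to set-2 were the histone gene his-47 and the pair R04E5.9 and cnnm-2, all at 0.04. With only 2 samples this is likeness of height, not of a pattern.

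Among the genes of the shared core, rbbp-5 and dpy-30 had a thresholded peak in 1 replicate each. At rbbp-5 (WBGene00017683, chrII:6097830-6099645, plus strand) replicate 2 had a peak with a signal of 133, which ranked 1724 of 2983 in its thresholded list. Replicate 1 had no ranked peak in the gene or upstream of it. In the larger list, made from both samples, the peak at chrII:6097411-6097846 had a signal of 289 and ranked 1362 of 4441. Its summit lay at -201 bp from rbbp-5. It lay at -32 bp from the divergent gene tpp-2 (WBGene00017686), which encodes a peptidase, so tpp-2 was the nearer gene. For comparison, the larger-list signal at set-2 was 499, with 250 in replicate 1 and 247 in replicate 2. Of the 4441 larger-list summits, 329 had no ranked peak over them in replicate 1 and 72 had none in replicate 2. The signal of replicate 1 at rbbp-5 is therefore unknown, and why it had no ranked peak there was not tested.

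At dpy-30, whose product also serves in dosage compensation of the X chromosome, the replicates placed their peaks apart. Replicate 1 had 1 peak, with a signal of 110 and its summit in a coding exon at 213 bp downstream of the start of dpy-30 (WBGene00001088, chrV:12191519-12192385, plus strand). Replicate 2 had its highest peak at -95 bp, with a signal of 77.1, and only 30.3 at the exon site. A further peak of replicate 2, with a signal of 61.8, lay at 835 bp, in a coding exon of the overlapping gene rnp-1. Its irreproducible discovery rate was 0.15, against 0.30 for the peak at -95 bp, where a lower rate means a more reproducible peak. The conservative list put the summit at -96 bp with a signal of 87.7, rank 3175 of 3291, where replicate 1 had no peak over the summit. The larger list put it in the exon, at 204 bp, with a signal of 132. The sequence printed for dpy-30 is that of the upstream site, with a value in replicate 2 alone. The start of rnp-1, a gene for an RNA-binding protein that overlaps the end of dpy-30, lay 850 bp downstream of the upstream summit, and the noncoding gene ZK863.11 started 723 bp before it.

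The other 4 genes, wdr-5.1, ash-2, cfp-1 and utx-1, had no summit in any thresholded list. A thresholded peak had a score of at least 830, where the score restates the irreproducible discovery rate (IDR) on a scale up to 1000 and 830 stands for an IDR of 0.01. In the ranked lists these genes held 20 peaks in replicate 1 and 24 in replicate 2, with signals of up to 67.1 and 76.1. The medians of the whole ranked lists were 28.9 and 27.8.

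Nearest to the threshold was ash-2 (chrII:11979838-11989050), where replicate 2 had 1 peak with a signal of 76.1 and a score of 678, an IDR of 0.023. Its summit, at -314 bp, lay in a coding exon of the neighbouring gene Y17G7B.20. In replicate 1 the whole ash-2 window of 10213 bp held no ranked peak. At cfp-1 (chrIV:14077435-14083568) the highest peaks were intronic, at 2057 bp with a signal of 67.1 in replicate 1 and at 2020 bp with 35.7 in replicate 2. At utx-1 (chrX:8557146-8563238) the highest peaks lay apart, upstream at -300 bp with 52.1 in replicate 1 and in a coding exon at 467 bp with 56.3 in replicate 2. Replicate 2 also had a peak of 39.0 at -281 bp. At wdr-5.1 (chrIII:3705285-3706784) the highest were 52.6 and 30.5, at -641 and -645 bp, inside a coding exon of the upstream gene C14B1.3. None of these peaks passed the threshold. A ranked peak on its own is common, since 54.5% of protein-coding genes held one in replicate 1 and 65.9% in replicate 2. Of the 9 genes, 7 held one in replicate 1 and 9 in replicate 2.

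**Figure D2:**
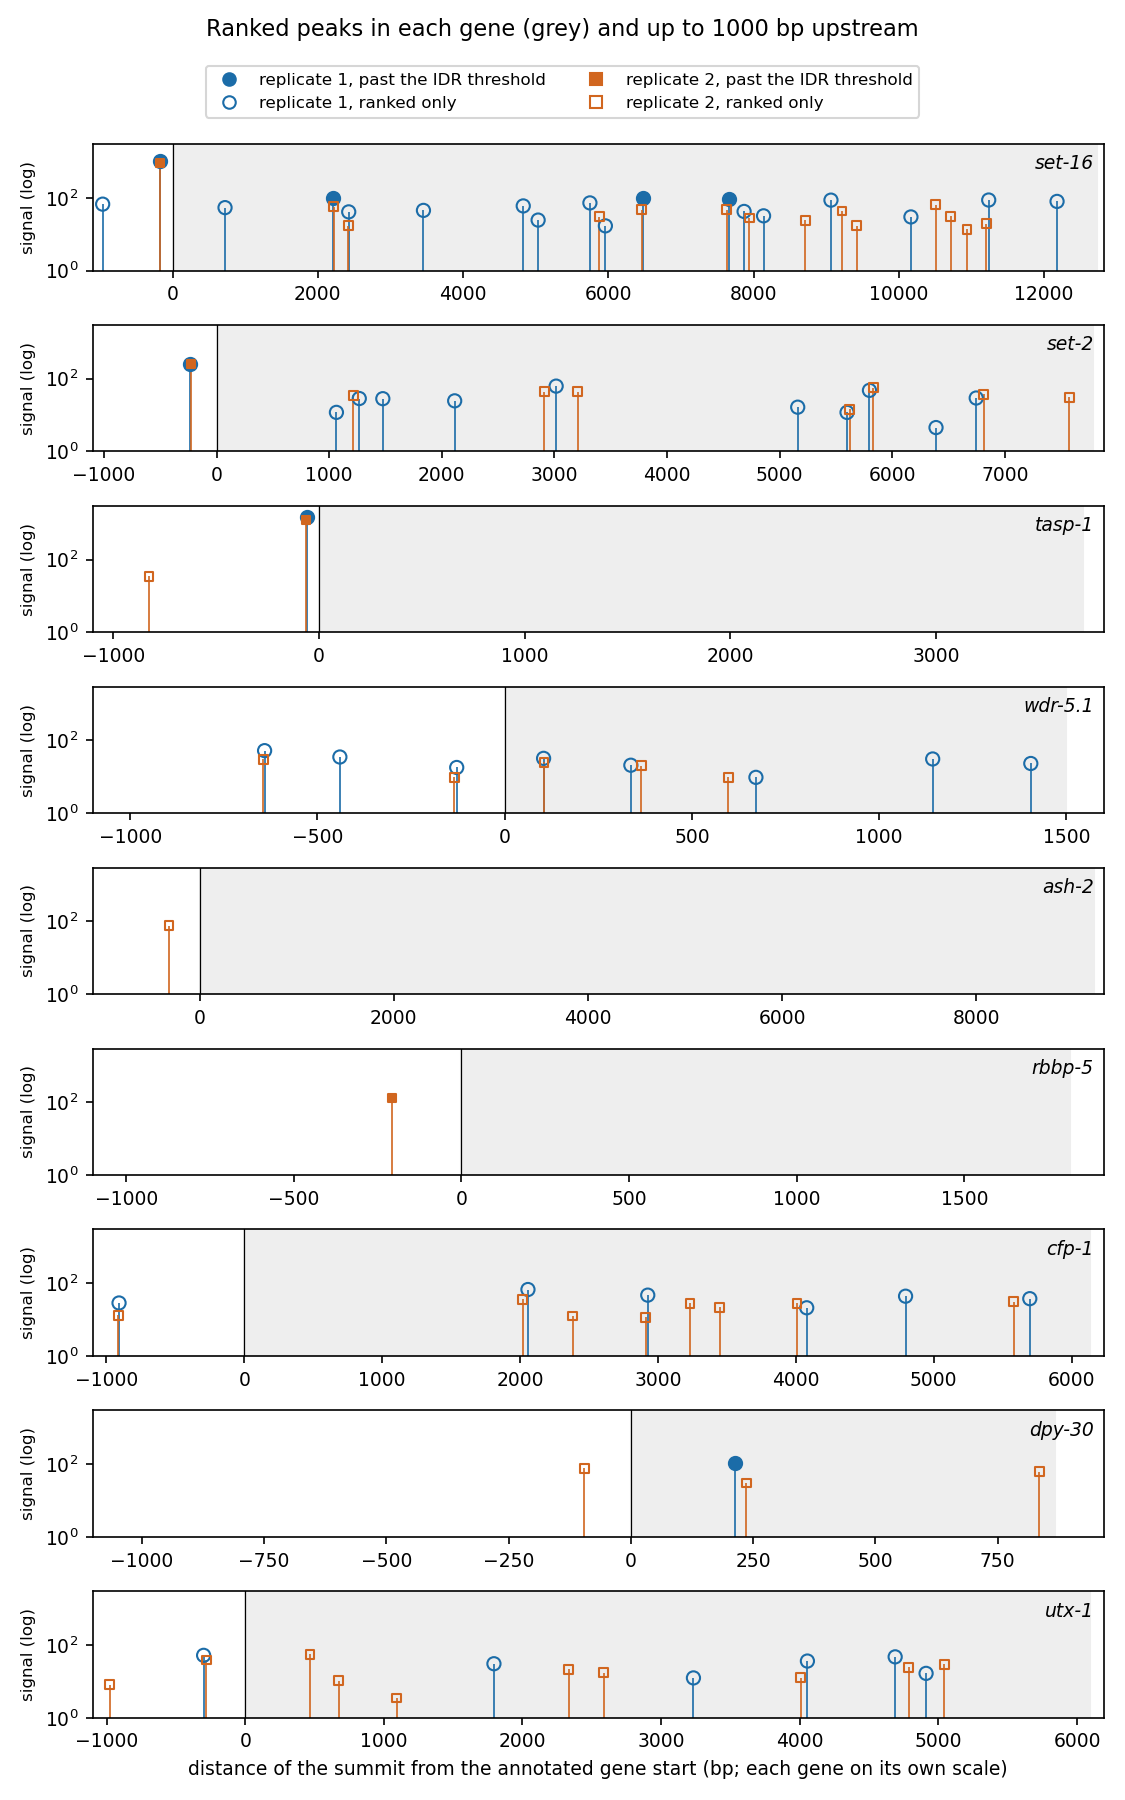
Ranked peaks of both replicates at each of the 9 genes: the x axis is the distance of the summit from the annotated gene start in bp, the y axis the authors' signal on a log axis, grey marks the gene body, and filled points passed the authors' threshold. The filled points upstream of tasp-1, set-16 and set-2 coincide between replicates, while wdr-5.1, ash-2, cfp-1 and utx-1 have open points only.

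The body of set-16 carried further weak peaks, and those in the larger list all had their summit in coding exons. The larger list had 4 of them, at 2217, 6481, 7658 and 9111 bp from the start, with signals from 132 to 160 against 1947 at the promoter on the same scale. In replicate 1 their signals were 98.7, 96.2, 90.7 and 86.1. In replicate 2 they were 56.8, 46.6, 46.5 and 43.2, lower at each of the 4 sites. These are sites of 1 gene, not repeated measures of a replicate. The replicate summits were 8, 19, 38 and 152 bp apart in the same order, so the last pair may not be 1 site. The log2 ratios of replicate 1 to replicate 2 ran from 0.80 to 1.05, while the promoter of the same gene had 0.18. Ratios of this size were not rare at this height: over the 548 larger-list summits with a signal in the same range the median was 0.09 and the 95th percentile 1.22. In the thresholded lists 3 of the 4 sites passed in replicate 1 and 0 in replicate 2. None was in the conservative list.

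The ranked lists, which hold peaks on both sides of the threshold, had more peaks along the set-16 gene. Some of their intervals overlap, such as chrIII:13651381-13651784 and chrIII:13651583-13651986 in replicate 1. The counts are therefore of peaks, not of separate sites, and 1 stretch can be counted more than once. Replicate 1 had 16 inside the gene, the 3 that passed included, and replicate 2 had 13, with median signals of 56.7 and 30.4. Of these, 16 and 12 had their summit in a coding exon, and coding sequence makes up 58.4% of the gene. Over all protein-coding genes 54.7% and 47.3% of ranked summits inside genes lay in coding exons, which make up 39.3% of gene bases. At set-2, the other SET enzyme gene, replicate 1 had 10 and replicate 2 had 7 ranked peaks inside the gene, with medians of 26.4 and 36.8, and none passed the threshold. The 9213 bp of ash-2 held no ranked peak inside the gene in either replicate.

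**Figure D3:**
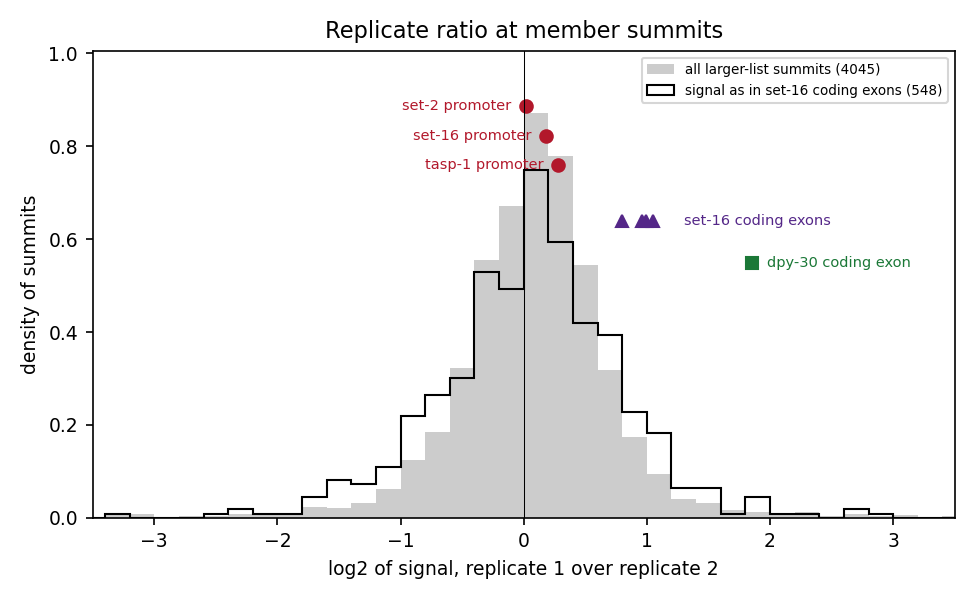
Distribution of the log2 ratio of signal in replicate 1 to replicate 2 (x axis; y axis, density) over 4045 larger-list summits (grey) and over the 548 with a signal in the range of the set-16 coding exon summits (black line); points mark member summits at arbitrary heights. The 3 promoter summits lie between 0.02 and 0.28, the set-16 coding exon summits between 0.80 and 1.05, and the dpy-30 coding exon summit at 1.85.

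Of the 5 promoter summits, that of set-16 alone held the words of 6 bases with the largest surplus at summits. Over the other 3287 conservative summits, every word of 6 bases was counted, on either strand, within 50 bp of the summit and in windows of the same size centred 200 bp to each side. The 5 words with the largest surplus at summits were GAGAGA (20.4% of summit windows against 8.29% of flanking windows), AGAGAG (16.9% against 6.74%), ACGCAG (12.7% against 2.87%), AGAGAC (14.4%) and CGTCTC (13.8% against 4.79%). The flanking share of AGAGAC lay between those of CGTCTC and AGAGAG. These words overlap one another, so they are not 5 separate features. The set-16 summit held all 5, which 1.43% of the other summits did. They fell in 2 groups, from 26 to 15 bases before the summit, where the run AGAGAGACGCAG holds all of them, and from 32 to 49 bases after it. The summits of tasp-1, set-2, dpy-30 and rbbp-5 held none, as did 62.3% of the other summits. Words with a smaller surplus were not compared among the members, and the absence of these 5 says only that their letters are not in these windows.

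**Figure D4:**
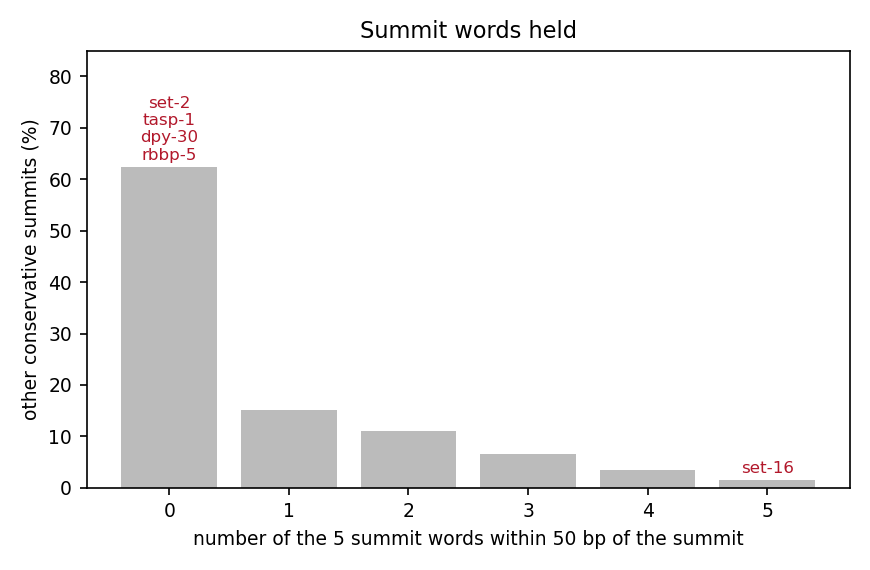
Share of the other 3287 conservative summits (y axis, percent) that hold 0 to 5 of the 5 summit words within 50 bp (x axis), with the promoter summits of the members written above the bar they belong to. The set-16 summit is in the class with 5 words, 1.43% of the other summits, and the other members are in the class with none, 62.3%.

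Base composition at the summits also varied among the genes. The share of G and C within 50 bp was 61.4% at set-16, 58.4% at tasp-1, 52.5% at rbbp-5, 51.5% at set-2 and 39.6% at dpy-30. The median of the other conservative summits was 47.5%, with 5th and 95th percentiles of 33.7% and 60.4%, so set-16 lay above that range and the others inside it.

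Other genes of H3K4 and H3K27 methylation were looked up in the conservative list as a wider list of 25 genes, and 7 had a summit, against the 13.4% of all protein-coding genes given above. Of 8 further genes of H3K4 methylation (wdr-5.2, wdr-5.3, swd-2.1, swd-2.2, hcf-1, pis-1, set-17 and set-30) none had one. The larger list had a peak at wdr-5.3 with a signal of 285. Replicate 2 had 156 there and replicate 1 had no ranked peak, a gap like that at rbbp-5. The summit of this larger-list peak lay at -170 bp from wdr-5.3 and at -78 bp from the divergent gene mre-11. Of 4 genes for H3K4 demethylases 1 had a summit, rbr-2, with 213 and 197 in replicates 1 and 2 (205 ± 11.4, SD, n = 2). Its summit lay at -678 bp, inside the noncoding gene ZK593.14 and 3 bp upstream of the noncoding gene ZK593.13. The genes spr-5, lsd-1 and amx-1, for demethylases of another family, had none.

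Of 7 genes of H3K27 methylation and its removal 3 had a summit. The strongest was at jmjd-1.2, which encodes a demethylase, with 442 in replicate 1 and 362 in replicate 2 (402 ± 56.6, SD, n = 2). It lay at -462 bp from jmjd-1.2 and at -328 bp from the divergent gene F29B9.11, and 2 weaker summits followed at -259 and 421 bp. The genes mes-2 and mes-6 encode the methyltransferase and a partner subunit in the worm counterpart of the Polycomb repressive complex. They had 135 ± 15.5 and 111 ± 1.88 (SD, n = 2), with summits at -121 bp and 1 bp. The third subunit gene, mes-3, and the demethylase genes jmjd-3.1, jmjd-3.2 and jmjd-3.3 had none.

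Of 6 genes for partners and readers of these marks 3 had a summit. The gene pqn-51, which encodes the large subunit of TFIIA, the factor whose mammalian counterpart taspase cleaves, had 460 in replicate 1 and 376 in replicate 2 (418 ± 58.9, SD, n = 2) at -131 bp, and a second summit 72 bp inside the gene at 192 ± 9.98 (SD, n = 2). The start of K11D12.14 is 29 bp from that of pqn-51, so the 2 genes share these summits. The gene set-26 had 326 and 335 (330.4 ± 6.70, SD, n = 2) at -559 bp, where tsr-2 was nearer at -171 bp. Its close paralogue set-9 had 94.1 and 82.1 (88.1 ± 8.46, SD, n = 2) at -495 bp, with scores of 80 and 324 in the ranked lists, and had no summit in the larger list. The 2 genes are near-identical copies over much of their length, and the sources used here do not say how reads matching both were placed. The genes sin-3, hda-1 and ing-3 had no summit.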

How the data were processed

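Chromatin immunoprecipitation with sequencing was done on 2 biological replicates of 1 group. Per the labels and the notes deposited with the files, the authors made peak lists on assembly ce11 from the alignment of each sample and of both. Neither aligner nor peak caller is given in the sources used here. For each peak the signal was deposited by the authors with no scaling between samples stated. The score was deposited by the authors as a scaled IDR, and the ranked lists hold the −log10 of the IDR as deposited by the authors. How deeply each sample was sequenced is unknown, so precision rests on 2 values a site.

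The first base of an interval was counted as 1. Genes came from Ensembl release 115 (WBcel235, the assembly of ce11). A replicate's signal is that of its ranked peak holding the conservative or larger summit, with the nearest summit where several did. Means carry the SD of 2 replicates. A site with no such peak in a replicate has no mean. The assignment of summits and the word count were checked on simulated peaks and sequences. The members, the wider list and the rules were chosen with earlier results of these data known. All members, genes starting within 1000 bp of their summits or holding them, the wider list, and the 3 genes nearest in signal to each of the 3 strongest members were named. No test was made, since there is 1 group and the members were selected on these values. Python 3.11.15, numpy 2.4.6, pandas 2.3.3 and matplotlib 3.10.9 were used.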

Additional observations from a re-analysis of the deposited data

How the results depend on the processing

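The share of protein-coding genes with a summit, 13.4%, depended on the list and the window: it was 17.08% with the larger list, 11.52% with 500 bp and 16.42% with 2000 bp upstream, 10.93% with the promoter window only, 14.82% when any overlap of the peak counted, and 12.48% to 12.59% with 1 replicate left out. The 4 member summits became 9 with the larger list and 4 to 7 with 1 replicate left out. The larger list added 4 coding exon summits of set-16 and the summit at rbbp-5, and moved that of dpy-30 into its coding exon. The number of members with a summit stayed between 3 and 5 in all 8 alternatives, and tasp-1, set-16 and set-2 were among them in each. The summits of these 3 lay within 500 bp of the start with signals over 100, so the window and signal settings could not remove them. The 7 genes of the wider list became 5 with 500 bp upstream, and 8 with 2000 bp upstream or any overlap of the peak. A signal of at least 100 removed dpy-30. Without replicate 1 dpy-30 was lost and rbbp-5 gained. No paired analysis was possible because there is 1 group. Depth is unknown, so a missing peak does not show that the protein was absent.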
